A study of Mus musculus with 6 samples.

Results

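Antisense and opposite-strand genes are transcription units annotated on the DNA strand opposite to another gene, and mouse nomenclature names many of them after that gene with the ending os. Members were taken by symbol: every symbol of the deposited table that ends in os or -as, with or without a digit, apart from a fixed list of protein names such as Fos and Nos1 and symbols that begin with Epb4. The rule gave 104 of 17912 genes. In 9 of these (Minos1, Mios, Mocos, Nanos1, Nanos3, Nrros, Otos, Pros1 and Uros) the letters os belong to the name of an ordinary protein-coding gene, so the description rests on the other 95, called opposite-strand genes here. The libraries compared were 3 from mouse embryonic stem cell (ESC) clones that express an shRNA to Exosc2 (genotype EXOSC2_KD, clones 5, 6 and 7) and 3 from control ESCs (genotype WT, replicates 1, 2 and 3). EXOSC2 is a cap subunit of the RNA exosome. Whether the controls carried a hairpin, and whether clones and controls share a parental line, is not stated in the labels. The labels also name no separate cultures, so each p-value reflects the spread between these libraries, which may be technical.

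Opposite-strand transcripts arise in several ways. Many mammalian promoters fire in both directions, and the upstream product is a noncoding RNA that runs head to head with the gene. Others start inside the gene they oppose or run into its 3′ end. The nuclear exosome degrades RNA from the 3′ end with the helicase MTR4 and the adaptor complexes NEXT and PAXT, and short promoter-upstream RNAs are among its known substrates. Stable antisense genes are capped, spliced and polyadenylated like messenger RNA, and only polyadenylated RNA was captured in these libraries.

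The annotation matched the names. Of the 95 opposite-strand genes, 93 have an annotated gene whose symbol is the stem, and all 93 stems lie on the opposite strand of the same chromosome in GENCODE M21 (GRCm38). Snhg7os and Zbtb8os had no annotated stem. The biotypes were antisense for 66, protein coding for 10, processed transcript for 8, lincRNA for 8, bidirectional promoter lncRNA for 2 and transcribed unitary pseudogene for 1. In 39 the member and its sense gene run head to head with starts at most 1000 bases apart, in 14 head to head with starts further apart, in 20 the member lies inside the sense gene, in 17 the genes run tail to tail and in 3 the member spans the sense gene.

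The 5 windows below show the starts of genes whose values are given further on. Brip1, Etaa1os and Cep83os are from head-to-head pairs with close starts, where the change of the opposite-strand gene and that of its sense gene differed, although the calls of Etaa1os and Cep83os were lost in some alternative settings. Grin1os and Egfros had the largest log2 fold changes among tested members inside a sense gene. Each is the RefSeq promoter window (GRCm38) of 300 bases, from 250 before to 50 after a RefSeq start, printed 5′ to 3′ on the strand of the gene named. In the first 3, capitals mark the stretch between the GENCODE starts of the 2 head-to-head genes, which is 178 bases for Brip1 and Brip1os, 96 for Etaa1os and Etaa1 and 79 for Cep83os and Cep83. In the last 2, which lie inside their sense genes, capitals mark the bases from the member's annotated start on.
Brip1 (minus strand, chr11:86201144-86201443): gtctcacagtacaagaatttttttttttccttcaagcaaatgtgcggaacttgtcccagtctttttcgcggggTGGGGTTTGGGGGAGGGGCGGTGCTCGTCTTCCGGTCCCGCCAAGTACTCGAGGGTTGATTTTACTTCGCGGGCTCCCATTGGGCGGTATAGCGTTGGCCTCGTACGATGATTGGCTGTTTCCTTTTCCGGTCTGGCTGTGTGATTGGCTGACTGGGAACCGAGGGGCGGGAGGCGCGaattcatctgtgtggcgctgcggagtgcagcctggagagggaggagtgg
Etaa1os (plus strand, chr11:17953720-17954019): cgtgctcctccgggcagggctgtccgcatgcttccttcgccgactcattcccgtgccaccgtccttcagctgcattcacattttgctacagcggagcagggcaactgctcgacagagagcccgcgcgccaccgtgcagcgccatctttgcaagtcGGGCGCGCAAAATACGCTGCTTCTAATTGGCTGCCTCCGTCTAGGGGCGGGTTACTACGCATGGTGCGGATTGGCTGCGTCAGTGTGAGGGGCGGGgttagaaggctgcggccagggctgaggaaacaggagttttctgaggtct
Cep83os (minus strand, chr10:94688564-94688863): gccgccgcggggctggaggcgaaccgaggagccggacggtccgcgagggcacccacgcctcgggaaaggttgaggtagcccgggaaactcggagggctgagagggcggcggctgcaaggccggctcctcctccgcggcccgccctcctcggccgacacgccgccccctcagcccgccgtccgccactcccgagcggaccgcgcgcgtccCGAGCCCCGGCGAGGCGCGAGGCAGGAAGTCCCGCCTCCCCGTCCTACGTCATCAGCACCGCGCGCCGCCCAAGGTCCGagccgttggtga
Grin1os (plus strand, chr2:25291008-25291307): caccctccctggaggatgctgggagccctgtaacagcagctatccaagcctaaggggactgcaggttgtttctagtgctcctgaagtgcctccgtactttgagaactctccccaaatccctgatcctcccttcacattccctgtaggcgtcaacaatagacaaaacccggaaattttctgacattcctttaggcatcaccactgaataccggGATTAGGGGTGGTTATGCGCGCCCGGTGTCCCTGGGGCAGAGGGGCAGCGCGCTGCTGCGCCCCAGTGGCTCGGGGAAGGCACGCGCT
Egfros (minus strand, chr11:16830629-16830928): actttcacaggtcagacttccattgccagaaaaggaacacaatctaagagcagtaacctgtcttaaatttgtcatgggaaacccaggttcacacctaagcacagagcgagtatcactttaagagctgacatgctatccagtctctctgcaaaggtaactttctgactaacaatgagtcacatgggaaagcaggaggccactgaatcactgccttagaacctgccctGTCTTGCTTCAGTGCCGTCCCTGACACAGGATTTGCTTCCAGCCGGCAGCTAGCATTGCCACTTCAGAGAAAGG

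CpG content, a trait the selection did not use, was counted in these windows by position against the sense gene. A window was found for 56 members. The observed over expected CpG ratio was above 0.6 in 23 of 28 windows of members with head-to-head starts within 1000 bases (median 0.84), in 2 of 11 windows of members inside their sense gene (median 0.31) and in 6 of 10 windows of tail-to-tail members (median 0.62). Of all 32851 windows 35.8% were above 0.6, with a median of 0.38. The hexamer AATAAA, the most common polyadenylation signal, was searched on the transcript strand in the last 40 bases of each annotated transcript. At least 1 transcript held it in 45 of 85 noncoding members (52.9%), 202 of 399 genes of antisense biotype in the table (50.6%) and 75.6% of protein-coding genes.

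Libraries held 24268430 to 26494985 reads in the clones and 21107761 to 24633836 in the controls. Exosc2 had 1138, 997 and 981 scaled counts in clones 5, 6 and 7, against 2457, 2473 and 1954 in controls 1, 2 and 3, so the clones kept 45.3% of the control mean (exact two-sided permutation p = 0.1, the smallest that 3 against 3 allow). The clones departed from their cell type label. Of 10 pluripotency markers 8 were lower and 2 higher (summed levels 103362 to 113410 in clones and 107110 to 124464 in controls). The 2 higher were Pou5f1 (mean 91114 in clones and 21045 in controls), which made up most of the clone sum, and Klf4 (14169 and 2415). Among the 8 lower, Nanog averaged 0.674 in clones and 9698 in controls, and Zfp42 and Utf1 had no read in any clone. Of 10 fibroblast and feeder markers 9 were higher and 1 lower (summed levels 50501 to 65605 in clones and 9281 to 10491 in controls), and no marker of that list was at 0. Of 9 tested epithelial markers 5 were higher and 4 lower (29473 to 32017 in clones and 23081 to 35335 in controls), with Krt6a at 0 in the controls. Their sums hide large single shifts, since Ehf averaged 16997 in clones and 1.69 in controls, and Cdh1 982 in clones and 15794 in controls. Of 5 tested neuronal markers 2 were higher and 3 lower (2972 to 3425 in clones and 1806 to 2457 in controls), with Elavl3 at 0 in the clones. The part of these marker shifts in the results below was not tested, and in bulk RNA fewer cells of a type and less RNA per cell cannot be told apart.

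Opposite-strand genes were mostly faint, and those that could be tested moved in both directions. Levels are scaled counts (read counts divided by a size factor per library). The median of the 95 was 11.8 scaled counts over the 6 libraries, against 347 over the whole table, and the range was 2.46 to 1362. A mean of at least 10 was needed for the test, which 51 of 95 (53.7%) reached, against 84.7% of the table. In limma on log2(scaled count + 1) with an adjusted p under 0.05, 25 of the 51 were higher in the clones, 14 were lower and 12 did not pass. The balance depended on the mean needed, since without that filter 32 of the 95 were called higher and 32 lower, against 31.9% and 38.2% of all genes. Over all 15179 genes tested, 35.2% were called higher and 38.3% lower, or 73.5% in all, against 76.5% of the 51. The median log2 fold change, clones over controls, was 0.82 over the 51 and -0.07 over all genes tested, and their range was -5.94 to 7.93. Clone and control values did not overlap in 39 of the 51, where 77.3% of all tested genes did not overlap. All genes of antisense biotype in the table gave 64 higher and 54 lower of 184 tested, with a median of 0.11.

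**Figure D1:**
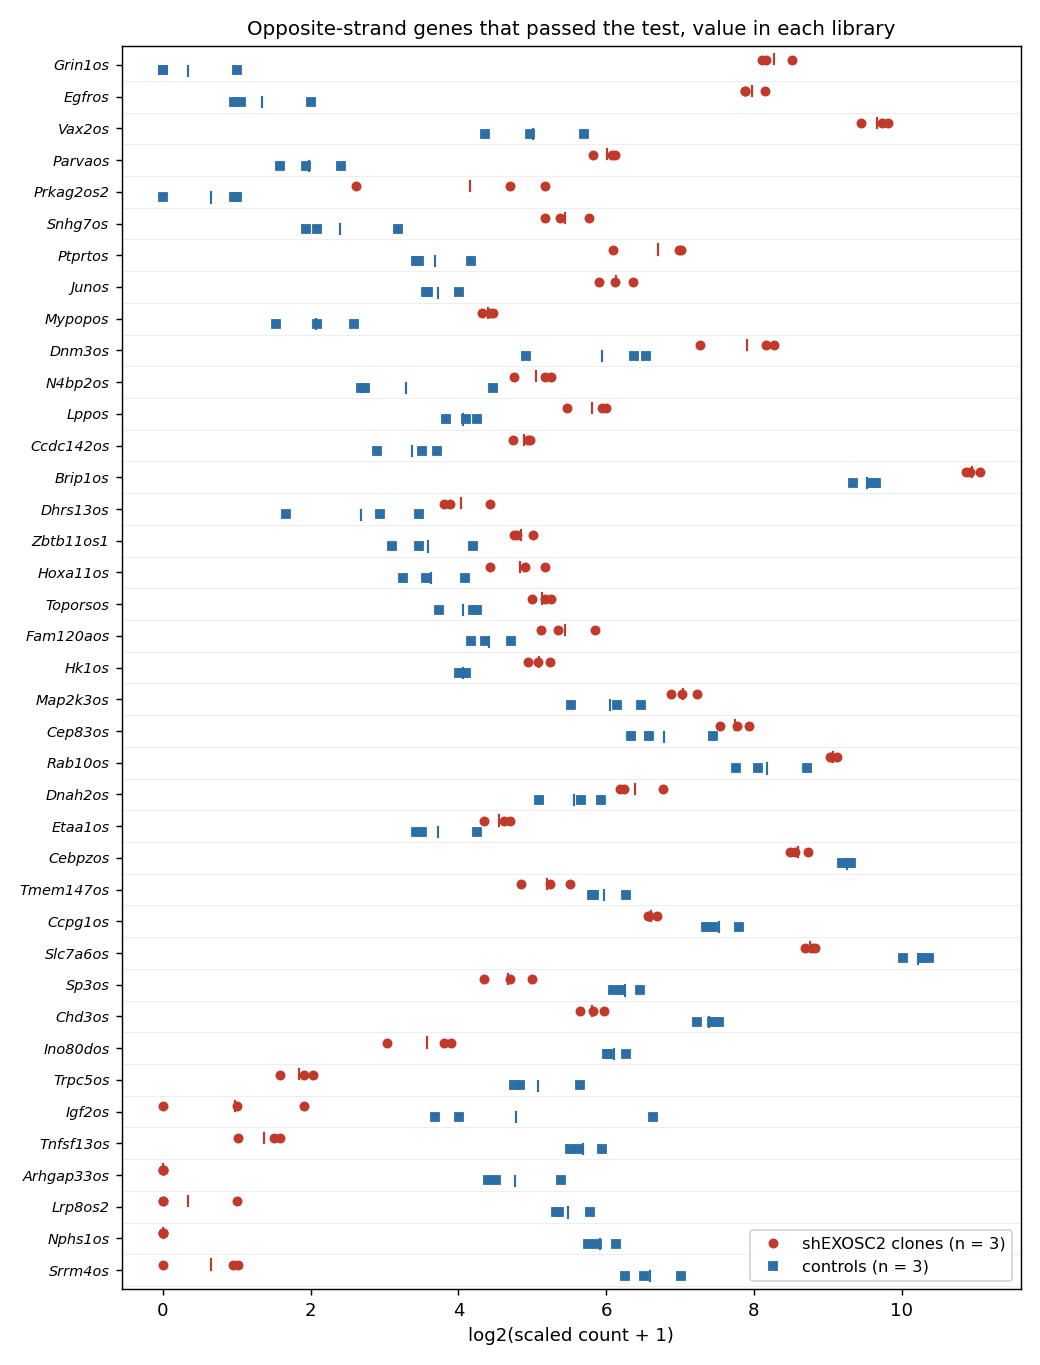
Value of each opposite-strand gene that passed the test, in each library. The x axis is log2(scaled count + 1), red circles are the 3 shEXOSC2 clones, blue squares the 3 controls and short vertical lines the group means, with genes ordered by log2 fold change from Grin1os (7.93) to Srrm4os (-5.94).

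Among head-to-head genes with starts within 1000 bases, 12 of the 20 tested rose, 2 fell and 6 were not called, and their median log2 fold change was 1.01. The 14 called were 70% of the 20, against 73.5% of all genes tested, of which 35.2% were higher and 38.3% lower. The other 19 of the 39 such genes were below the tested level. Brip1os (ENSMUSG00000085208.3, chr11:86201370-86304443, plus strand) was the most abundant opposite-strand gene (mean 1362). It shares the first window shown with Brip1, which encodes a helicase that works with BRCA1 in DNA repair. Brip1os had 2131, 1871 and 1938 scaled counts in clones 5, 6 and 7, against 801, 651 and 777 in controls 1, 2 and 3. Every clone lay above every control, and the log2 fold change was 1.42 ± 0.12 (SE; limma adjusted p = 8.96e-06). Brip1 had 749, 704 and 578 in the clones and 798, 674 and 719 in the controls. These values overlap, and Brip1 did not pass (log2 fold change -0.11 ± 0.14, adjusted p = 0.485 in limma). The log2 ratio of Brip1os to Brip1 was 1.51, 1.41 and 1.74 in the clones, against 0.01, -0.05 and 0.11 in the controls. It rose by 1.53 ± 0.14 (adjusted p = 1.73e-05 in limma over all opposite-strand pairs). Per kilobase of exon Brip1os stood at 335% of Brip1 in the clones and 117% in the controls.

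Vax2os and Junos rose together with their sense genes. Vax2 is a homeobox factor of the ventral eye, and Jun is a subunit of the AP-1 transcription factor. Vax2os (ENSMUSG00000085794.5, chr6:83692806-83712201, minus strand) had 849.6, 899 and 702 scaled counts in clones 5, 6 and 7, against 30.3, 19.4 and 51.2 in controls 1, 2 and 3. Vax2 had 1069, 1680 and 1293 in the clones, against 14.2, 14.0 and 24.1 in the controls. Neither gene's groups overlapped, and the log2 fold changes were 4.66 ± 0.32 for Vax2os and 6.21 ± 0.27 for Vax2. The Vax2os to Vax2 ratio fell by 1.55 ± 0.31 on the log2 scale (limma adjusted p = 0.00182), so the sense gene rose more than the opposite-strand gene. Junos had 68.6, 81.2 and 59.0 in the clones, against 15.2, 10.8 and 11.05 in the controls (log2 fold change 2.41 ± 0.27). Jun had 737, 936 and 879 in the clones and 377, 419 and 331 in the controls (1.18 ± 0.15). Here the opposite-strand gene rose more, and the ratio was higher by 1.23 ± 0.30 (adjusted p = 0.00549 in limma).

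Lppos and Map2k3os also rose beside a rising sense gene. Lpp encodes a LIM-domain protein of focal adhesions and Map2k3 a kinase that activates p38. Lppos had 60.7, 62.7 and 43.4 scaled counts in clones 5, 6 and 7, against 13.3, 16.2 and 18.1 in controls 1, 2 and 3, a rise of 1.74 ± 0.28 beside 1.81 ± 0.30 for Lpp. The groups did not overlap for either gene, and their ratio did not pass (log2 change -0.07 ± 0.37, adjusted p = 0.870 in limma). Map2k3os rose by 0.998 ± 0.275 beside 1.72 ± 0.10 for Map2k3, and the ratio was lower by 0.72 ± 0.25 on the log2 scale with an adjusted p of 0.028 in limma.

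N4bp2os and Zbtb11os1 were called higher while their sense genes did not pass. N4bp2os had 25.9, 37.0 and 35.1 scaled counts in clones 5, 6 and 7, against 5.68, 5.40 and 21.1 in controls 1, 2 and 3. Control 3 stood well above the other controls but below every clone, and the log2 fold change was 1.76 ± 0.49 (limma adjusted p = 0.01004). N4bp2 had 1898, 1626 and 1591 in the clones and 2304, 1766 and 2853 in the controls, which overlap, and its log2 fold change of -0.41 ± 0.17 missed the threshold (adjusted p = 0.0569 in limma). Zbtb11os1 rose by 1.27 ± 0.34 and Zbtb11 had 0.02 ± 0.13.

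In 4 head-to-head pairs the opposite-strand gene and its sense gene were called in opposite directions. Etaa1 encodes an activator of the ATR kinase at stalled replication forks, Cep83 a distal appendage protein of the centriole, Topors a ubiquitin and SUMO ligase and Tmem147 a membrane protein of the endoplasmic reticulum. Toporsos, which is annotated as protein coding (ENSMUSG00000028407.3, chr4:40269579-40270940), had 30.8, 37.0 and 35.1 scaled counts in clones 5, 6 and 7, against 12.3, 17.3 and 18.1 in controls 1, 2 and 3 (log2 fold change 1.08 ± 0.27). Topors had 1791, 1725 and 1845 in the clones and 3101, 2586 and 2491 in the controls (-0.60 ± 0.11). Neither gene's groups overlapped, and the Toporsos to Topors ratio was higher by 1.68 ± 0.29 (adjusted p = 7.29e-04 in limma).

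Etaa1os (ENSMUSG00000086468.1, chr11:17953970-17959578, plus strand) had 24.9, 23.6 and 19.4 scaled counts in clones 5, 6 and 7, against 10.4, 9.72 and 18.1 in controls 1, 2 and 3. The lowest clone stood just above the highest control, and the log2 fold change of 0.82 ± 0.32 passed narrowly (adjusted p = 0.0445 in limma). That call was kept in 7 of 16 alternative settings, and was lost without clone 5, 6 or 7 or control 1 or 2 (0.76, 0.79, 0.93, 0.72 and 0.67). Etaa1 had 759, 669.9 and 701 in the clones and 2090, 1590 and 1280 in the controls (-1.19 ± 0.18). The ratio of the pair was higher by 2.02 ± 0.40 on the log2 scale (limma adjusted p = 0.00185).

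Cep83os (ENSMUSG00000097164.1, chr10:94671025-94688576, minus strand) had 244, 217 and 185 scaled counts in clones 5, 6 and 7, against 94.7, 79.9 and 173 in controls 1, 2 and 3. Control 3 lay close to clone 7, and the log2 fold change was 0.96 ± 0.29 (adjusted p = 0.0160 in limma). The call was lost without clone 5, control 1 or control 2 (0.86, 0.86 and 0.74). Cep83 had 1123, 928 and 919 in the clones and 1538, 1247 and 1216 in the controls (-0.43 ± 0.14), and the ratio was higher by 1.39 ± 0.32 (limma adjusted p = 0.00389). Tmem147os, the reverse case, had 44.8, 27.7 and 36.9 in the clones and 54.9, 56.2 and 76.3 in the controls (-0.77 ± 0.27). Its call was lost without clone 6, clone 7 or control 3 (-0.59, -0.79 and -0.62) and its sign changed under quantile normalization (0.08). Tmem147 had 1314, 1357 and 1244 in the clones and 648, 691 and 669 in the controls (0.96 ± 0.11).

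Members inside their sense gene held the largest rises. They comprised 14 tested genes, 10 higher, 3 lower and 1 not called, and the median log2 fold change was 1.73. Over all genes tested 35.2% were higher and 38.3% lower, and the other 6 of the 20 such members were below the tested level. Among those 6, Frs3os, Kank4os, Banf2os and Kdm6bos had every clone below every control. The balance of rises and falls therefore holds for tested members only. Grin1os (ENSMUSG00000085830.1, chr2:25291220-25298925, plus strand) lies inside Grin1, which encodes the obligatory subunit of NMDA glutamate receptors. It had 286.5, 276 and 366 scaled counts in clones 5, 6 and 7, against 0, 0 and 1.004 in controls 1, 2 and 3. The 954 clone reads against 1 control read give a ratio of means of 925, with an exact Poisson 95% interval of 166 to 36538 that covers counting error only. Grin1 had 106, 105 and 33.2 in the clones and 76.7, 98.3 and 325 in the controls. These overlap, with control 3 highest, and Grin1 did not pass (-0.90 ± 0.61, adjusted p = 0.208 in limma). Per kilobase of exon, Grin1os stood at 1275% of Grin1 in the clones and 0.673% in the controls, and 45.2% of its exonic bases lie under exons of the opposite strand.

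Egfros and Parvaos followed strongly rising sense genes. Egfr encodes the epidermal growth factor receptor, and Parva alpha-parvin, an actin-binding partner of integrin-linked kinase. Egfros (ENSMUSG00000085091.1, chr11:16815431-16830702, minus strand) has no exonic base under an opposite-strand exon. It had 284.5, 235 and 234 scaled counts in clones 5, 6 and 7, against 0.947, 1.08 and 3.01 in controls 1, 2 and 3, a 149.6-fold higher mean (log2 fold change 6.63 ± 0.34). Egfr had 10045, 7978 and 8160 in the clones and 158, 138 and 308 in the controls (5.51 ± 0.27). The ratio of the pair was higher by 1.12 ± 0.24 with a pseudocount of 1 (adjusted p = 0.00278 in limma), but by -0.21 with a pseudocount of 5, so its direction rests on the 5 control reads of Egfros. Parvaos had 68.6, 66.8 and 55.4 in the clones, against 2.84, 4.32 and 2.01 in the controls (4.03 ± 0.32), beside 3.45 ± 0.18 for Parva. The ratio of that pair did not pass (0.57 ± 0.40, adjusted p = 0.226 in limma).

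Ptprtos and Dnm3os were more abundant per kilobase of exon than their sense genes in both groups. Ptprt encodes a receptor tyrosine phosphatase and Dnm3 a dynamin, and Dnm3os is known as a microRNA host transcript. Ptprtos had 128, 125 and 67.3 scaled counts in clones 5, 6 and 7, against 17.05, 9.72 and 10.04 in controls 1, 2 and 3 (log2 fold change 3.01 ± 0.35). Ptprt had 76.6, 68.8 and 46.1 in the clones and 9.47, 10.8 and 33.1 in the controls (1.97 ± 0.46). Per kilobase Ptprtos stood at 3355% of Ptprt in the clones and 1379% in the controls. Dnm3os (chr1:162217623-162225550) had 308, 154 and 285 in the clones, against 82.4, 29.2 and 92.4 in the controls, a rise of 1.96 ± 0.45. Dnm3 itself was too faint for the test, with 4.97, 3.08 and 4.61 in the clones and 8.52, 10.8 and 15.1 in the controls. Prkag2os2 rose by 3.51 ± 0.66 on 68 clone reads against 2 control reads, and clone 6 (5.14) stood far below clones 5 and 7 (24.9 and 35.1). Its share of exonic bases under exons of the opposite strand is above the 45.2% of Grin1os.

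Lrp8os2 and Nphs1os, also inside their sense genes, were nearly absent from the clones. Lrp8 encodes a receptor for reelin and apolipoprotein E, and Nphs1 nephrin, a protein of the kidney filtration slit. Lrp8os2 (ENSMUSG00000073779.7, chr4:107806033-107823022, minus strand) had 0.995, 0 and 0 scaled counts in clones 5, 6 and 7, against 38.8, 54.0 and 40.2 in controls 1, 2 and 3. Lrp8 went the other way, with 1896, 1784 and 1713 in the clones and 446, 382 and 671 in the controls (log2 fold change 1.89 ± 0.20). With 1 clone read against 131 control reads, the control mean of Lrp8os2 was 134 times that of the clones (interval 24.0 to 5281), and the ratio of the pair was lower by 7.04 ± 0.43 on the log2 scale with an adjusted p of 1.82e-06 in limma. Nphs1os (chr7:30462164-30465591) had no read in any clone, against 57.8, 69.1 and 53.2 in controls 1, 2 and 3, so it was at least 20.4-fold lower (floor of 3 reads per library). Nphs1 had none in the clones either, against 748, 988 and 693 in the controls, so the pair has no ratio in the clones. Rab26os, inside Rab26, did not pass (149, 134 and 140 in the clones and 141, 84.2 and 156 in the controls), while Rab26 fell by 2.496 on the log2 scale.

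The 8 tail-to-tail members tested gave 1 rise, 5 falls and 2 without a call, and a median log2 fold change of -1.06. Over all genes tested 35.2% were higher and 38.3% lower, and the other 9 of the 17 were below the tested level. Chd3os, Slc7a6os and Cebpzos, among the falls, are annotated as protein coding, so position and coding class cannot be told apart for them. Srrm4 encodes a neuronal splicing factor. Srrm4os (ENSMUSG00000086219.7, chr5:116438720-116465487) had 0, 1.03 and 0.923 scaled counts in clones 5, 6 and 7, against 90.0, 75.6 and 129 in controls 1, 2 and 3. Its control mean was 151 times the clone mean on 2 clone reads (interval 41.8 to 1246). Srrm4 had 6.96, 4.11 and 5.54 in the clones and 31.3, 24.8 and 23.1 in the controls (log2 fold change -2.08 ± 0.31), so both fell, and the ratio fell by 3.86 ± 0.53 (limma adjusted p = 1.90e-04). Arhgap33os (chr7:30515122-30522193) had no clone read, against 21.8, 41.0 and 20.1 in the controls, at least 9.39-fold lower, beside -1.78 ± 0.26 for Arhgap33. Rab10os was the only tail-to-tail member that rose (0.89 ± 0.23), beside 0.81 ± 0.12 for Rab10.

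Chd3os and Slc7a6os are tail-to-tail members annotated as protein coding, and neither has an exonic base under an opposite-strand exon. Chd3 encodes a helicase of the NuRD complex and Slc7a6 an amino acid transporter. Chd3os (ENSMUSG00000043419.10, chr11:69340461-69342641) had 61.7, 49.3 and 55.4 scaled counts in clones 5, 6 and 7, against 171, 149 and 184 in controls 1, 2 and 3 (log2 fold change -1.58 ± 0.21). Chd3 had 4679, 4843 and 4463 in the clones and 1117, 1110 and 1393 in the controls (1.96 ± 0.12). The groups did not overlap for either gene, and the ratio fell by 3.54 ± 0.18 (adjusted p = 7.60e-07 in limma). Slc7a6os had 454, 411 and 440 in the clones and 1325, 1244 and 1039 in the controls (-1.46 ± 0.13), while Slc7a6 did not pass (0.03 ± 0.11).

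Head-to-head genes with starts over 1000 bases apart numbered 5 tested, of which 3 fell and 1 rose, against 38.3% lower and 35.2% higher over all genes. The other 9 of the 14 were below the tested level. Ino80dos (chr1:63113078-63158290) had 13.9, 7.19 and 12.9 scaled counts in clones 5, 6 and 7, against 64.4, 63.7 and 76.3 in controls 1, 2 and 3 (log2 fold change -2.53 ± 0.31), beside -0.60 ± 0.14 for Ino80d, a subunit of the INO80 remodeler. Sp3os had 24.9, 30.8 and 19.4 in the clones and 87.1, 72.4 and 67.3 in the controls (-1.57 ± 0.27). Sp3, a GC-box binding factor, had 3602, 3443 and 3292 in the clones and 4534, 3507 and 4737 in the controls and did not pass (-0.29 ± 0.13, adjusted p = 0.0662 in limma). The Sp3os call was lost under quantile normalization (-0.72).

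Igf2os and its sense partner Igf2, an imprinted growth factor gene, stood far higher in control 3 than in the other controls. Igf2os had 0.995, 0 and 2.77 scaled counts in clones 5, 6 and 7, against 15.2, 11.9 and 98.4 in controls 1, 2 and 3 (log2 fold change -3.81 ± 0.80). Igf2 had 674, 460.3 and 844 in the clones and 1635, 1725 and 13092 in the controls (-2.38 ± 0.71). The groups did not overlap for either gene. The Igf2os call was lost under quantile normalization (-1.82), and the ratio of the pair, lower by 1.43 ± 0.36, moved to -0.04 with a pseudocount of 5. Control 3 was the highest control in 32 of the 51 tested opposite-strand genes, and in 5 (Grin1os, H3f3aos, Igf2os, N4bp2os and Phtf1os) it exceeded 3 times each other control. For Grin1os that was 1 read in control 3 against 0 in controls 1 and 2.

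Tnfsf13os and Snhg7os fall outside these arrangements. Tnfsf13os (chr11:69682138-69691141) spans Tnfsf13, the cytokine APRIL, and had 1.99, 1.03 and 1.85 scaled counts in clones 5, 6 and 7, against 44.5, 60.5 and 48.2 in controls 1, 2 and 3 (log2 fold change -4.32 ± 0.31). Snhg7os (chr2:26640372-26645944), named after a small nucleolar RNA host gene, had 53.7, 34.9 and 40.6 in the clones and 2.84, 3.24 and 8.04 in the controls (3.04 ± 0.40). Neither gene's groups overlapped.

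**Figure D2:**
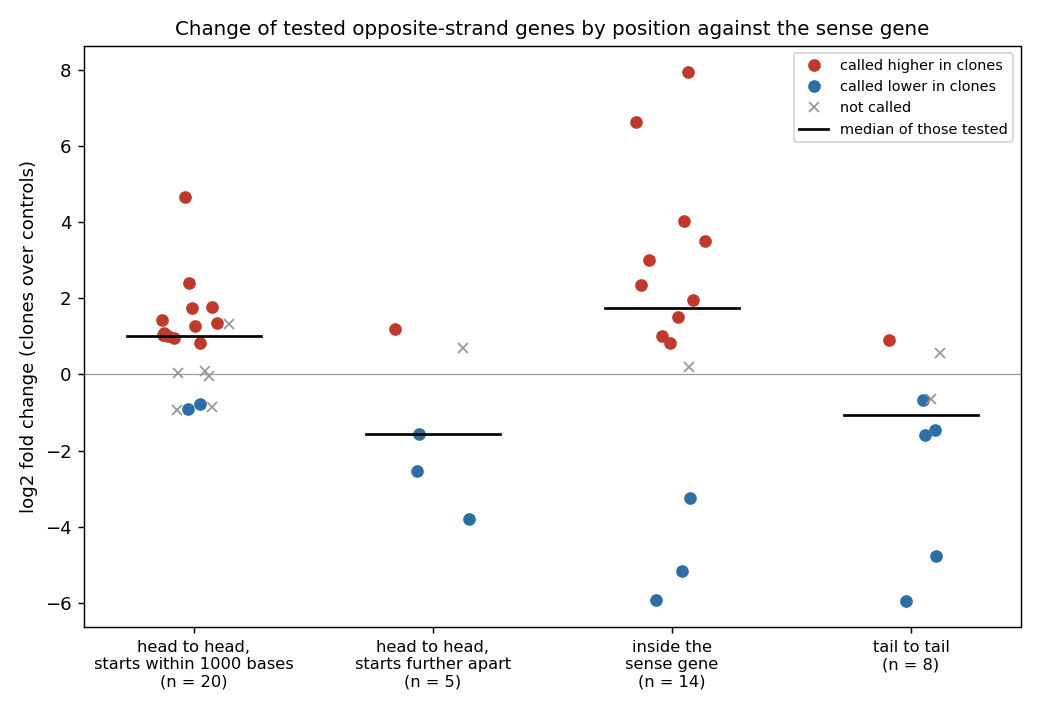
Log2 fold change, clones over controls, of each tested opposite-strand gene by its position against the sense gene. Points are genes, red where called higher, blue where called lower and grey crosses where not called, and black lines are medians (1.01, -1.57, 1.73 and -1.06 over 20, 5, 14 and 8 genes).

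Sense partners moved in both directions too, and called pairs moved together more often than apart. Of the 84 partners that the table holds, 78 were tested, of which 38 were higher, 23 lower and 17 not called, with a median log2 fold change of 0.30. Of all genes tested 73.5% were called, 35.2% higher and 38.3% lower. Both genes were tested in 45 of 87 pairs and called in 29, of which 16 were both higher, 7 both lower and 6 opposite. That is 79.3% in the same direction, against 884 of 1432 (61.7%) other opposite-strand pairs within 1000 bases with both genes called, a difference that was not tested. The opposite-strand gene was called alone in 6 pairs and the sense gene alone in 7. In pairs with head-to-head starts within 1000 bases 7 of 11 had the same direction, in pairs with the member inside the sense gene 9 of 10, and in tail-to-tail pairs 4 of 5. With the median shift of each chromosome subtracted, 26 of the 104 members were called higher and 17 lower, against 27 and 18 without.

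**Figure D3:**
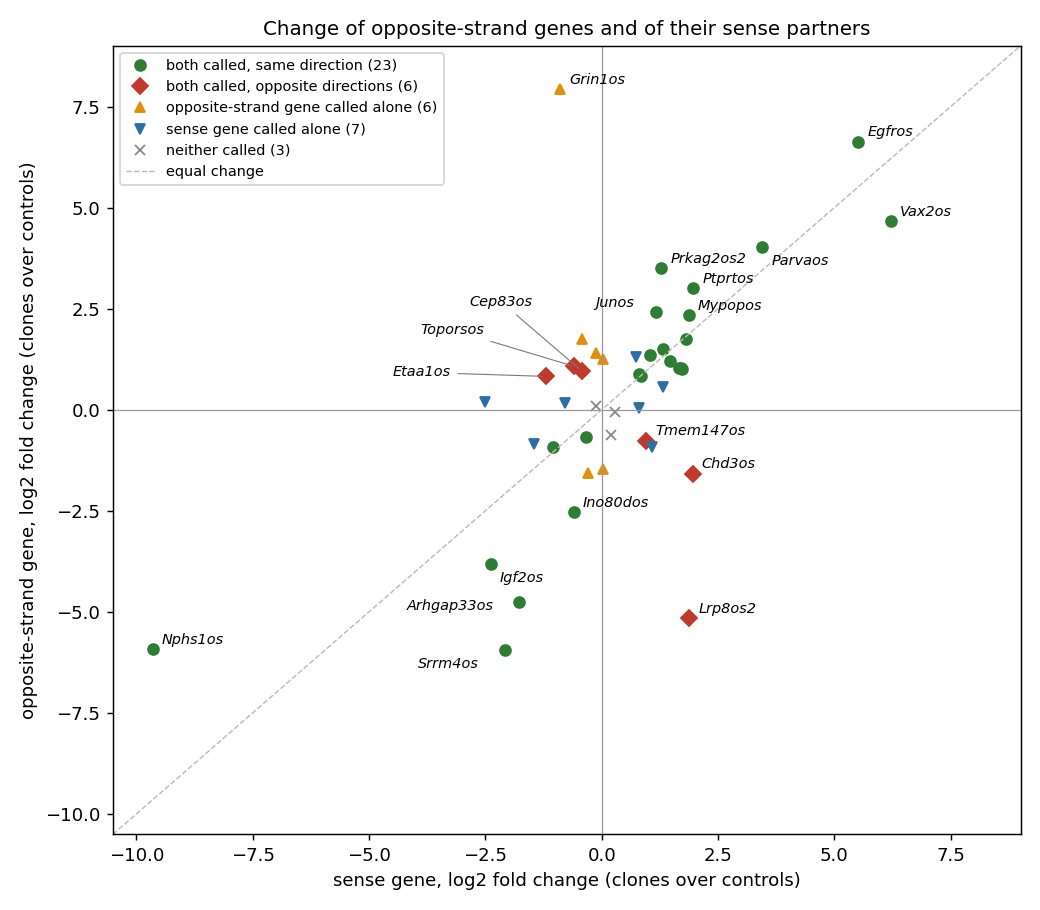
Log2 fold change of the opposite-strand gene (y axis) against that of its sense gene (x axis), clones over controls, for the 45 pairs with both genes tested. Symbols give which genes were called, and the dashed line marks equal change. Points in the upper left and lower right quadrants moved apart, and Grin1os, Lrp8os2 and Srrm4os lay farthest from the line among all 45 pairs.

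The ratio of the opposite-strand gene to its sense gene was tested in 43 pairs, in one fit over all 2793 opposite-strand pairs within 1000 bases. In 1 of them, Nphs1os and Nphs1, neither gene had a read in the clones, so its fitted ratio rests on the pseudocount and is not counted. In the other 42 the ratio was higher in 11, lower in 14 and not called in 17, so 25 of 42 (59.5%) were called, against 73.2% of all pairs, of which 6 lacked reads of both genes in a group. The median absolute log2 change of the ratio was 1.08 over the 42 and 1.14 over all pairs. Per kilobase of exon the opposite-strand gene stood above its sense gene in 13 of 87 pairs in the clones and in 16 in the controls, and its median level was 5.78% of the sense level in the clones and 5.02% in the controls.

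**Figure D4:**
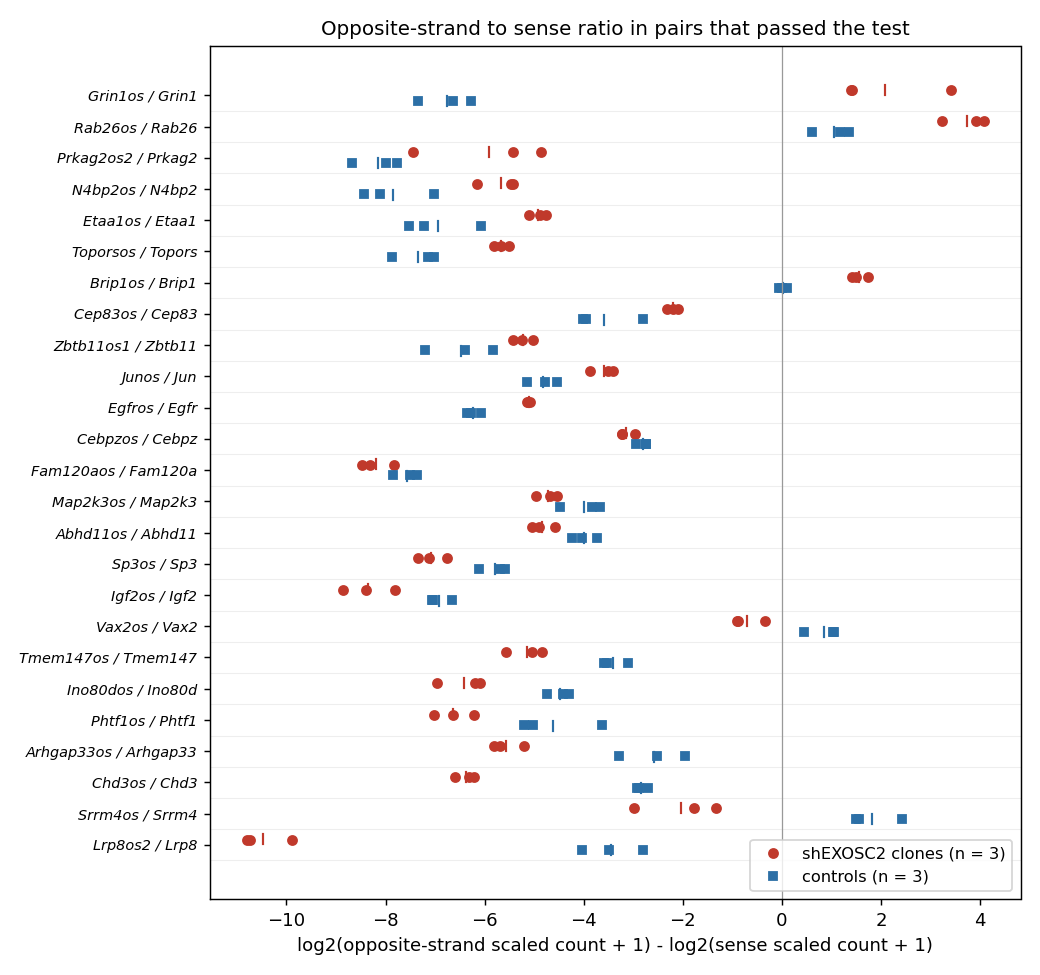
Log2 ratio of opposite-strand to sense scaled count (pseudocount 1) in each library, for the 25 pairs whose ratio passed the test and that had reads in both groups. Red circles are the 3 shEXOSC2 clones, blue squares the 3 controls and short lines group means. The Grin1os ratio lies above 0 in every clone and at -6.28 or lower in every control.

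Among members that reached the tested level, most called noncoding ones rose and most called coding ones fell, a difference that was not tested. Of 43 tested noncoding members 24 rose and 9 fell (median log2 fold change 0.96), and of 8 tested coding members 1 rose and 5 fell (median -0.79). Over all genes tested 35.2% were higher and 38.3% lower. Another 42 noncoding and 2 coding members were below the tested level, and without that filter 32 of the 95 members were called higher and 32 lower. Beyond those given, Trpc5os fell by 3.24 on the log2 scale, Ccpg1os by 0.92 and Cebpzos by 0.66, the last 2 beside falls of 1.05 for Ccpg1 and 0.33 for Cebpz. Wdr83os, which encodes an endoplasmic reticulum chaperone factor, had 799, 853 and 837 scaled counts in clones 5, 6 and 7, against 868, 961 and 760.3 in controls 1, 2 and 3. These overlap and did not pass (-0.05 ± 0.13), and with chromosome medians subtracted the value was 0.43 ± 0.12, which passed with an adjusted p of 0.0094 in limma. Zbtb8os did not pass either (0.25 ± 0.17).

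The 9 ordinary protein-coding genes that the symbol rule takes gave 2 higher, 4 lower and 2 not called of 8 tested. The calls were 75% of the 8, near the 73.5% called over all genes tested (35.2% higher and 38.3% lower). Nanos3, a germ cell RNA-binding protein, had 1.99, 1.03 and 0 scaled counts in clones 5, 6 and 7, against 146, 207 and 53.2 in controls 1, 2 and 3, a control mean 135 times that of the clones on 3 clone reads (interval 46.1 to 653). Nrros, a partner of latent TGF-beta in myeloid cells, had 1.99, 5.14 and 2.77 in the clones and 72.9, 76.7 and 36.2 in the controls (log2 fold change -3.86 ± 0.41). Minos1, a subunit of the mitochondrial contact site complex, had 1329, 1300 and 1375 in the clones and 2098, 2021 and 1699 in the controls (-0.53 ± 0.11), a call lost with chromosome medians subtracted (-0.25). Mios, a regulator of mTORC1, had 719, 720.2 and 742 in the clones and 1616, 1372 and 1404 in the controls (-1.005 ± 0.112). Pros1, the anticoagulant protein S, had 1764, 1427 and 1399 in the clones and 866, 696 and 1254 in the controls (0.74 ± 0.21).

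The 44 opposite-strand genes below the level needed for the test held no value above 27.7 scaled counts in a clone or 28.4 in a control. The clone mean was higher in 18 and the control mean in 26, and the groups did not overlap in 9 with the higher clone mean and 20 with the higher control mean. Among genes that reached the tested level, 77.3% over the whole table did not overlap. Without the filter on low values 8 of the 44 were called higher and 18 lower, against 31.9% and 38.2% of all genes. All 3 clones were at 0 in 6 of them (Crxos, Fancd2os, Foxl2os, Plet1os, Slmapos2 and Tbx3os2) and all 3 controls in 2 (Frmd8os and Runx2os1). Tbx3os2 was at least 4.72-fold lower in the clones and Tbx3os1 had 4.97, 3.08 and 4.61 in clones 5, 6 and 7, against 15.2, 9.72 and 18.1 in controls 1, 2 and 3, beside a log2 fold change of -3.49 for Tbx3, a T-box factor. Runx2os1 had 8.95, 8.22 and 12.0 in the clones and no control read, at least 3.21-fold higher, beside a rise of 5.80 for Runx2, the bone lineage factor. Tspan32os had 3.98, 4.11 and 6.46 in the clones and 6.63, 4.32 and 4.02 in the controls, which overlap, beside a rise of 6.90 for Tspan32. These were chosen after their values were seen.

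Of 37 listed gene symbols of the machinery that degrades promoter and antisense RNA 35 were tested, with 20 called lower, 6 higher and 9 not called (median log2 fold change -0.46, against -0.07 over all genes tested). Ncbp3 was absent from the deposited table, and Ints11 was present only under its older symbol Cpsf3l, which is also on the list. The 26 calls were 74.3% of the 35, near the 73.5% called over all genes, while 57.1% of the 35 were lower, against 38.3% of all genes, and 17.1% were higher, against 35.2%. No test set the list against other genes. In the exosome core and its catalytic subunits and cofactors, a list without the core subunit gene Exosc6, 2 rose and 8 fell of 12. The falls here and in the whole list include Exosc2 itself, the target of the shRNA. Of the 2 rises, Exosc4 had overlapping groups. The nuclease gene Dis3 averaged 1317 ± 112 scaled counts in clones and 6114 ± 686 in controls (SD, n = 3 each). In NEXT, PAXT and the related TRAMP complex 2 rose and 5 fell of 11. Skiv2l2, the gene of MTR4, averaged 2331 ± 144 in clones and 4509 ± 399 in controls, and the poly(A)-binding protein gene Pabpn1 1024 ± 132 in clones and 2152 ± 243 in controls. The NEXT gene Rbm7 was higher (0.38 ± 0.12) and the PAXT gene Zfc3h1 did not pass (0.27 ± 0.19). Among cap-binding and early termination factors 2 rose and 7 fell of 12, with Zc3h4 higher (0.45 ± 0.11) and Ints1 higher with overlapping groups (0.71 ± 0.25).

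Reads of overlapping genes limit these values. The kit marks strand, but the sources used here do not give whether counting used it. A median of 8.65% of a member's exonic bases lay under exons of the opposite strand, and at most 82.1%. In 30 members no exonic base did, and of the 17 of them tested 8 rose and 6 fell, Egfros, Lrp8os2, Parvaos and Chd3os among them. The 14 called were 82.4% of the 17, against 73.5% of all genes tested, of which 35.2% were higher and 38.3% lower. Over the whole table, 31 genes had reads although all their exonic bases lie under opposite-strand exons, of 498 such genes in the annotation. No gene of the deposited table had fewer than 15 reads over the 6 libraries. Genes absent from it may therefore still have had reads.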

How the data were processed

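Poly(A) RNA of 6 libraries was made from 500 ng of total RNA with a stranded mRNA kit and 8 PCR cycles, per the labels' protocols. The authors deposited a signal table of gene read counts scaled by DESeq. The submitters' processing notes name the build mm10, DESeq 1.22.1, HTSeq 0.5.3, STAR 2.5.0a and cutadapt 1.6, without settings. In every library 100.0% of values were whole multiples of one step within 0.001 read, which gave recovered reads per library. Of 17912 genes, 17860 (99.7%) matched GENCODE M21, used for positions.

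Groups came from sample titles. Members and gene lists were chosen with earlier results of these data known. Genes with a mean of at least 10 were tested with limma 3.58.1 (eBayes with trend) on log2(value + 1), Benjamini-Hochberg adjusted over all genes tested, with a threshold of 0.05. This scale understates changes of low genes. Ratios within pairs were fitted likewise over all opposite-strand pairs within 1000 bases. A group at 0 was set to 3 reads per library, and groups with 1 to 3 reads have exact 95% Poisson intervals, both covering counting error only. The tests were checked on simulated counts in which far fewer genes changed than were called here. That check does not cover shifts as broad as these. Named in full were the 10 largest rises and 10 largest falls with a mean of at least 20, opposite-direction pairs, the 5 most abundant members and the 5 largest ratio changes, and others are examples chosen after their values were seen. Alternatives were pseudocounts of 0.5 and 5, filters, scalings, eBayes settings, chromosome centring, recovered reads in DESeq2 1.42.0 and in edgeR 4.0.16, and leaving out each library. Software was Python 3.11.15 with numpy 2.4.6, pandas 2.3.3, matplotlib 3.10.9 and scipy 1.17.1, and R 4.3.3.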

Additional observations from a re-analysis of the deposited data

How the results depend on the processing

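Depth limits faint members most, since 44 of 95 opposite-strand genes did not reach the tested level. Of the 45 called members, 34 kept their call under every alternative and 1 changed sign in one of them (Tmem147os). Without the filter on low values 34 members were called higher, 37 lower, and 43 pair ratios were called, since more genes entered the test, and with a mean of at least 50, where fewer did, there were 12 higher, 8 lower and 9 ratios. These counts of ratios take in the Nphs1os pair, 26 with it at the reported setting. Among members with no exonic base under opposite-strand exons, a selection added after seeing the data, 8 were higher and 6 lower of 17 tested. Of all genes tested 35.2% were higher and 38.3% lower. With a single library left out, 22 to 28 members were called higher, 17 to 18 lower and 21 to 27 ratios, the decay list gave 22 to 26 calls, all genes 10143 to 11491 and Exosc2 a log2 fold change of -1.25 to -1.08. Signs reversed for Tmem147os under quantile normalization (0.077), for Wdr83os with chromosome medians subtracted (0.43) and without control 2 (0.029; -0.14 to 0.029 over single libraries left out), for the Egfros and Parvaos ratios with a pseudocount of 5 (-0.21 and -0.35) and for the Lppos ratio under quantile normalization (1.02), without clone 7 (0.07) and without control 2 (0.30; -0.34 to 0.30 over single libraries left out). The cause was not tested. Under quantile normalization the Sp3os and Igf2os ratios (-0.25 and -0.10) were no longer called. No paired analysis was possible because the clones carry the numbers 5 to 7 and the controls 1 to 3.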

Other observations

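Long antisense RNAs named without the os ending were read beside the members, as values with no further test. Tsix, the antisense partner of Xist, had no read in clones 5, 6 and 7, against 63.4, 75.6 and 73.3 scaled counts in controls 1, 2 and 3, so it was at least 24.0-fold lower in the clones. Xist had 731, 357 and 628 in the clones and 174, 56.2 and 377 in the controls, which overlap, and was called higher (log2 fold change 1.81 ± 0.60, adjusted p = 0.0225 in limma). The imprinted antisense RNA Airn had 22.9, 9.25 and 10.1 in the clones and 15.2, 8.64 and 22.1 in the controls, while Igf2r, the gene it overlaps on the opposite strand, had 1910, 1846 and 2017 in the clones and 4070, 3910 and 7099 in the controls and was called lower (-1.33 ± 0.21, adjusted p = 0.000416). Kcnq1ot1 had 85.6, 95.6 and 66.4 in the clones and 73.9, 72.4 and 157 in the controls, with control 3 highest. Nespas had 48.7, 38.0 and 44.3 in the clones and 43.6, 61.6 and 37.2 in the controls. Clone and control values overlapped for Airn, Kcnq1ot1 and Nespas, and none of the 3 passed in limma (adjusted p = 0.799 for Airn, 0.588 for Kcnq1ot1 and 0.770 for Nespas).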
